A study of Mus musculus with 28 samples.

Results

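In mouse day 4 mesoderm, 205 regions were listed for H3K27me3 in every control library and in no library after deletion of Brg1. They were defined by list membership alone: all 6 H3K27me3 lists were merged where regions shared at least 1 bp, which gave 19499 merged regions, and a region was called lost when all 3 control lists and none of the 3 4-OHT lists overlapped it. Of the 4225 merged regions in all 3 control lists, 205 (4.85%) were lost, 1320 were partly kept (in 1 or 2 4-OHT lists) and 2700 were kept (in all 3). The opposite pattern was rarer, since 9 of the 2857 regions in all 3 4-OHT lists (0.315%) were in no control list. The difference in H3K27me3 between control and 4-OHT chose these regions, so it is given as a description with no test. A region missing from a list may still carry the mark at a level under the calling threshold. The cultures were assayed in bulk, so fewer marked cells and less of the mark per cell cannot be told apart.

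The cells were Brg1 f/f;Actin-CreER mouse embryonic stem cells taken as embryoid bodies to day 2 and then reaggregated for 40 h with VEGF, Activin A and BMP4. From day 2 they received the solvent tetrahydrofuran (THF, control) or 200 nM 4-hydroxytamoxifen (4-OHT) in THF, which activates CreER and deletes the floxed Brg1 alleles. Both conditions therefore carried the floxed alleles and the Cre transgene, driven by an actin promoter, and differed in the drug. ChIP-seq was made for H3K27me3 in 3 control and 3 4-OHT replicates, for Suz12 and for H3K27ac in 2 and 2, and for FLAG-tagged Brg1 in 3, which the labels give the same genotype and the study's methods describe as a Brg1-FLAG line in duplicate.

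H3K27me3 is the histone mark placed by Polycomb repressive complex 2 (PRC2) and is found over silent developmental genes, where it is typically broad and centered on CpG-rich promoters. Suz12 is a core subunit of PRC2, so its ChIP-seq locates the complex that writes the mark. H3K27ac occupies the same lysine and marks active promoters and enhancers. Brg1 is the ATPase of BAF chromatin remodeling complexes, which act on enhancers and have been linked both to opposing and to assisting Polycomb repression.

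Sequence was read at the center of the 3 widest lost regions at a protein-coding transcription start site (TSS) and of the 3 widest away from any TSS, to show the DNA of these regions. Each window is 300 bp of the mm9 build on the + strand with CpG dinucleotides in capitals. The windows at start sites lie at chr1:194682613-194682912, upstream of Sertad4 and partly over the noncoding gene Gm15867, at chr8:87235226-87235525, inside Nfix (which encodes a nuclear factor I transcription factor), and at chr5:74039963-74040262, between Sgcb (beta-sarcoglycan of the dystrophin-associated complex) and Spata18. The distal windows lie at chr6:47598338-47598637, chr13:56313576-56313875 and chr2:178376351-178376650, all intergenic, with Ezh2, Tifab and Cdh26 as the nearest protein-coding genes.
Sertad4: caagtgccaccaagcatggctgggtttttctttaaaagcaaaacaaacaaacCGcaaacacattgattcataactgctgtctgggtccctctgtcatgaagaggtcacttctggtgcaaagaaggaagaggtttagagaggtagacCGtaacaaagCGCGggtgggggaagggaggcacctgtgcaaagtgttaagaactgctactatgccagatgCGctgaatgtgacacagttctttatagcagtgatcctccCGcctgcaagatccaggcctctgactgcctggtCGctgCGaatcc
Nfix: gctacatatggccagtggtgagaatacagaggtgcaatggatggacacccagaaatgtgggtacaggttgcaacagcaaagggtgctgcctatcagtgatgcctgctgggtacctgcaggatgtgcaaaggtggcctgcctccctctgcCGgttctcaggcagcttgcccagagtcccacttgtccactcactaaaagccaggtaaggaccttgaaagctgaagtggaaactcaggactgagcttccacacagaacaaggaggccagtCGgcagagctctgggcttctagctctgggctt
Sgcb/Spata18: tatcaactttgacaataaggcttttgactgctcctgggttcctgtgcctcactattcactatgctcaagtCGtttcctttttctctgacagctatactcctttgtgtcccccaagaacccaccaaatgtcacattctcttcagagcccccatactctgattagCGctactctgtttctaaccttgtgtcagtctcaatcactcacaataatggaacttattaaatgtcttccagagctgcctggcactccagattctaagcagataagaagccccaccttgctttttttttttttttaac
nearest Ezh2: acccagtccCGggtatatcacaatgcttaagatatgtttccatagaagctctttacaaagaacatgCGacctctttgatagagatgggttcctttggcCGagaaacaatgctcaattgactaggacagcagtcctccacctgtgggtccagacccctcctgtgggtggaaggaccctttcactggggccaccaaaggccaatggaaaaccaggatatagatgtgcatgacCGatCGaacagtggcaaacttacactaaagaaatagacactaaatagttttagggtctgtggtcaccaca
nearest Tifab: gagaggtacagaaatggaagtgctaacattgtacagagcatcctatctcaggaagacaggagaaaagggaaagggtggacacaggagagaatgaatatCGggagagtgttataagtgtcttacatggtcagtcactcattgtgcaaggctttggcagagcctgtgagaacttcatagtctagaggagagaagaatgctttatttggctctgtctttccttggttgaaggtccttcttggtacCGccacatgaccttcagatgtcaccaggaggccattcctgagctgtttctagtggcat
nearest Cdh26: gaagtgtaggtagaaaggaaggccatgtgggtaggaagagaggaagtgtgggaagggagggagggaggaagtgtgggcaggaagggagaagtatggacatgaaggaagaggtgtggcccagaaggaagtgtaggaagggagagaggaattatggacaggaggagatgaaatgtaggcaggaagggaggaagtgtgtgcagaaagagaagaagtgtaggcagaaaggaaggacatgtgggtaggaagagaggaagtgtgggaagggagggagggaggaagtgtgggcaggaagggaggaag
The windows held 8, 2, 2, 5, 2 and 0 CpGs in the order printed. The Sertad4 window held the most, and the window nearest Cdh26 was a purine-rich run with no CpG in which short words recur. Over the whole of that region, 17.9% of 12-base words occurred more than once, which was true of at least 10% of words in 6 of the 205 lost regions (2.93%), 11 of 1320 partly kept regions (0.833%) and 5 of 2700 kept regions (0.185%).

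Most lost regions were low in CpG, as was the average H3K27me3 region of these lists. The ratio of observed to expected CpGs, in which 1 means that CpGs are as frequent as the C and G content predicts, had a median of 0.221 in the lost regions, 0.321 in partly kept regions and 0.436 in kept regions. It was 0.220 over all 19499 merged regions and 0.221 in the 820 regions of 2 control and no 4-OHT lists. The mm9 genome as a whole had 0.191. GC content differed less, with medians of 48.2% in lost and 50.3% in kept regions against 41.8% genome-wide. The ratio reached 0.6 in 14 of 205 lost regions (6.83%, 95% exact binomial interval 3.78 to 11.2%) and in 324 of 2700 kept regions (12%, 10.8 to 13.3%). The median was also lower in lost than in kept regions at promoters (0.264 lost, 0.452 kept) and away from them (0.185 lost, 0.336 kept), although over all distal merged regions it was 0.146. The difference from kept regions moved with width. Between 500 and 1000 bp the medians were 0.213 in lost and 0.322 in kept regions, and between 250 and 500 bp 0.219 and 0.295. Under 250 bp, where 69 lost and 16 kept regions lay, they were 0.256 and 0.262, with 0.184 in partly kept regions. Regions are not replicates, so these are descriptions of classes and carry no test.

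**Figure D1:**
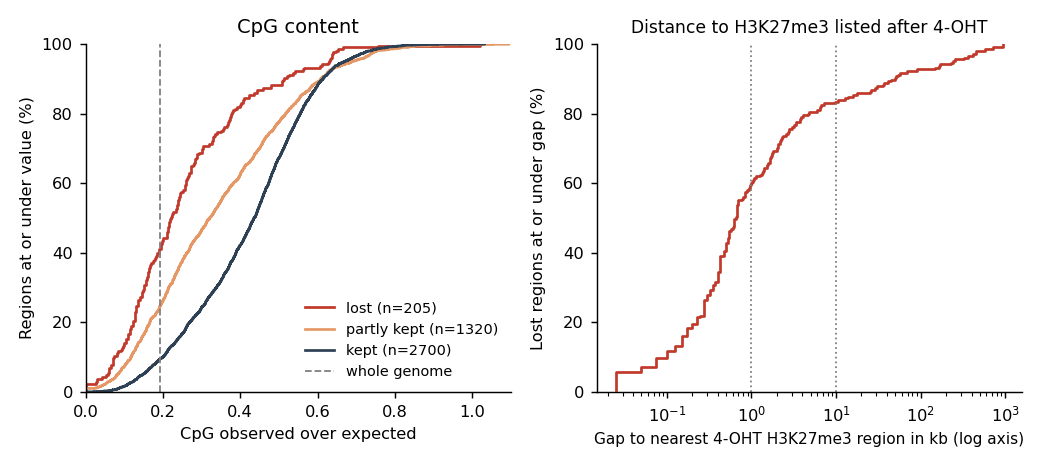
Left, cumulative share of lost, partly kept and kept H3K27me3 regions (y axis, percent) by CpG observed over expected (x axis), with the whole-genome value dashed; the lost curve lies to the left, with a median of 0.221 against 0.436 in kept regions. Right, cumulative share of the 205 lost regions by gap to the nearest H3K27me3 region of any 4-OHT list in kb (log axis, gaps of 0 drawn at the left edge), with dotted lines at 1 and 10 kb; 60.0% lay within 1 kb.

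The lost regions were narrow. Their width, given as the bases that a list covered inside the merged region, had a median of 300 bp in control replicate 1 (25 to 3125 bp), 275 bp in replicate 2 (25 to 3850 bp) and 200 bp in replicate 3 (25 to 3450 bp). The libraries gave unlike widths for the same region: the widest was a median 3.80 times the narrowest, and 104 members were widest in replicate 1, 67 in replicate 2 and 34 in replicate 3. Averaged over the 3 control libraries the median was 300 bp, compared with 600 bp in partly kept and 1742 bp in kept regions. In 47 of the 205 members every control library covered at least 250 bp, and in 13 every one covered at least 500 bp.

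**Figure D2:**
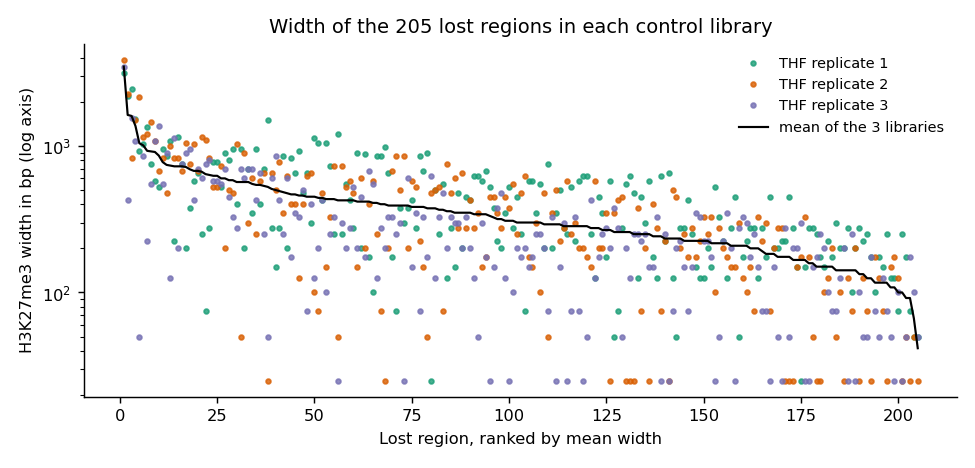
H3K27me3 width in bp (log axis) of each of the 205 lost regions in the 3 control libraries (points) and their mean (line), ranked by mean width along the x axis; the mean falls from 3475 bp to 41.7 bp, and most regions lie under 1000 bp.

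The share of regions lost fell with control width. Among regions in all 3 control lists, 69 of 228 under 250 bp were lost (30.3%), 96 of 590 between 250 and 500 bp (16.3%) and 34 of 1023 between 500 and 1000 bp (3.32%). Above that, 5 of 1173 between 1000 and 2000 bp (0.426%) and 1 of 1211 wider ones (0.0826%) were lost. Width was measured in the control lists that chose the members, so this too is a description.

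Some members met the rule through very little sequence. In 59 of the 205 (28.8%) the narrowest control library covered 50 bp or less. The 468 regions in all 3 control lists and 1 4-OHT list had a median mean control width of 425 bp, and in 50 of them (10.7%) the single 4-OHT list covered 50 bp or less. The 820 regions in 2 control lists and no 4-OHT list were narrower, with a median mean control width of 133 bp, and in 284 of them (34.6%) the narrower library covered 50 bp or less.

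The lists themselves differed. Control H3K27me3 lists held 16959, 8798 and 8977 regions over 8.38, 11.01 and 10.03 Mb, and 4-OHT lists 10394, 7872 and 6787 regions over 4.74, 8.99 and 7.62 Mb, in replicate order. The replicate 1 lists of both conditions stood apart, with widest regions of 9300 and 7550 bp against 33350 to 94725 bp in the other 4. The files carry no read counts, so depth per library is unknown, and its part in which narrow regions were listed was not tested. Without control replicate 1, 2 or 3 the rule, then resting on 2 control lists, gave 509, 480 or 547 lost regions. Without 4-OHT replicate 1, 2 or 3 it gave 454, 376 or 256. H3K27ac regions lay within 2.5 kb of a TSS in both control lists for 9 of 10 mesoderm and primitive streak markers and 0 of 4 neural markers found in the annotation. They did so for 4 of 5 pluripotency, 3 of 5 definitive endoderm and 1 of 5 cardiomyocyte markers. In both 4-OHT lists the counts were 8 mesoderm, 0 neural, 5 pluripotency, 1 endoderm and 0 cardiomyocyte markers, with Cxcr4 and Tnnt2 in both control lists and neither 4-OHT list. The part of this shift in the H3K27me3 lists was not tested.

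**Figure D3:**
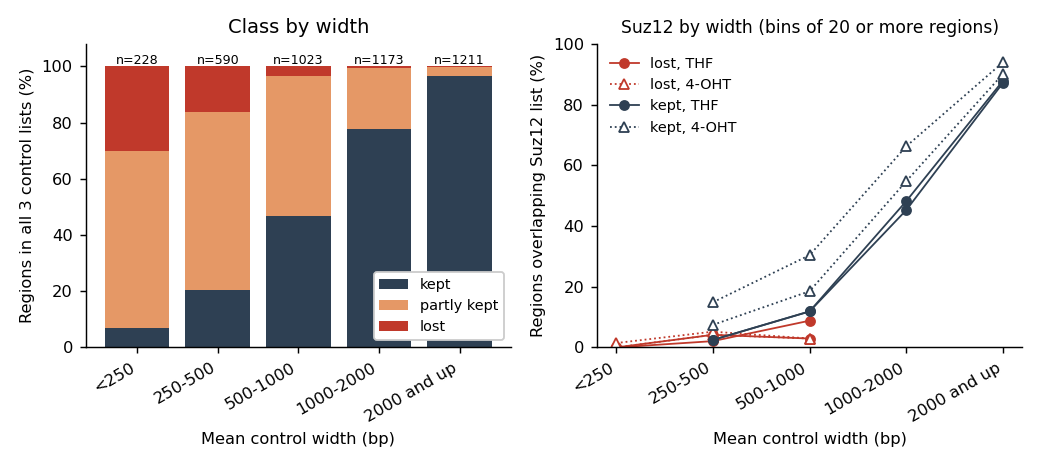
Left, share (percent) of the 4225 regions in all 3 control lists that were kept, partly kept or lost, by mean control width in bp; the lost share falls from 30.3% under 250 bp to 0.0826% at 2000 bp and above. Right, share of lost and of kept regions that overlapped each Suz12 list (filled circles, THF; open triangles, 4-OHT; 1 line per library), by the same widths and for bins of at least 20 regions; between 250 and 500 bp the control values of lost and kept regions lie between 2.08 and 4.17%.

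Most lost regions lay within 5 kb of H3K27me3 listed in at least 1 4-OHT library. The median gap from a lost region to the nearest region of any 4-OHT H3K27me3 list was 0.650 kb. That nearest region could be in a single 4-OHT list and no control list, as 2464 merged regions were. For partly kept and kept regions this gap is 0 by definition. The gap was at most 1 kb for 123 of 205 (60.0%) and at most 5 kb for 165 (80.5%), and 8 lost regions abutted a 4-OHT region without sharing a base. A kept region lay within 1 kb of 64 lost regions (31.2%) and within 5 kb of 96 (46.8%). For partly kept regions the shares were 26.8% and 38.1%. The median gap to the nearest kept region was 11.2 kb from lost and 43.1 kb from partly kept regions. When H3K27me3 regions up to 1 kb apart were joined first, the same rule gave 111 lost regions, and 99 were counted when each list was reduced to its 6787 widest regions.

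The other 34 lost regions (16.6%) had no 4-OHT H3K27me3 region within 10 kb, and 20 of them were at a promoter. They included the promoters of Dnmt3a (a de novo DNA methyltransferase), Bcl2 (an inhibitor of apoptosis), Tnrc6c (a GW182 protein of microRNA silencing), Dnm1 (dynamin, an endocytic GTPase) and Dpp4 (a cell surface peptidase), named after their values were seen. At Dnmt3a the control libraries covered 875, 200 and 175 bp at chr12:3804951-3805825 and the nearest 4-OHT region was 327 kb away. At Bcl2 they covered 150, 600 and 300 bp at chr1:108609476-108610150, with the nearest 4-OHT region 931 kb away. At both genes no other region of all 3 control lists was found at a TSS.

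About as many lost regions lay away from start sites as near them. Within 2.5 kb of a TSS lay 96 of 205 lost regions (46.8%, 95% exact binomial interval 39.8 to 53.9%), 70.0% of partly kept, 80.4% of kept and 54.1% of all merged regions. A further 36 lost regions (17.6%) were intronic, 3 exonic and 70 (34.1%) intergenic. Among regions of 500 to 1000 bp the promoter share was 55.9% in lost and 76.5% in kept regions, and between 250 and 500 bp it was 47.9% and 71.9%. Under 250 bp the order turned, with 44.9% of 69 lost and 31.2% of 16 kept regions, and 55.9% of partly kept ones. Lost regions were found on 20 chromosomes, and 47 of them fell into 21 groups within 50 kb of each other. Groups were not counted for the other classes, so this grouping cannot be called particular to lost regions. The largest group held 4 lost regions over 38.6 kb on chromosome 7, nearest Polg and Rhcg. The 3 groups of 3 lay near Accn4 and Tmem198, near Zfp503 and near 2700062C07Rik, and the 17 pairs included those near Isl1, Lmx1b, Barx2 and, between them, Pax2 and Hif1an.

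At 90 lost regions a protein-coding TSS lay within 2.5 kb, and these gave 91 genes, or 0.409% of 22238 protein-coding gene symbols. Of the 91 genes, 35 also had a kept region at a TSS and 47 a kept or partly kept one. Of all protein-coding genes, 8.22% had a kept region there. The others had neither there. Among them Itga11 had 2 lost regions, and the neighboring genes Chpf and Tmem198 shared 2. Nfix had 6 kept regions beside its lost one, and Fgfr2 had 3 partly kept ones.

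The widest lost region at a coding TSS was that of Sertad4, at chr1:194681951-194683575, where the 3 control libraries covered 750, 1450 and 550 bp. At Nfix (chr8:87234701-87236050) they covered 575, 1075 and 1075 bp, and at Sgcb and Spata18 (chr5:74039576-74040650) 950, 825 and 550 bp. These 3 lost regions had all control libraries above 500 bp, unlike most members. At Accn4, an acid-sensing ion channel family gene, the widths were 225, 825 and 1125 bp. This region was narrow in replicate 1 alone. Susd4, a regulator of complement, had 200, 1050 and 900 bp, and Arfip1, an Arf-interacting protein gene, 375, 750 and 950 bp in a region that abutted a 4-OHT region. St8sia2, the polysialyltransferase of neural cell adhesion molecules, had 650, 675 and 700 bp, the most even of these regions. Tgfbr1, the type I receptor for TGF-beta, had 275, 825 and 800 bp.

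Other genes of the 15 widest promoter regions were of mixed function. Crip2 encodes a LIM domain protein, Kif19a a kinesin, Prdm9 a meiotic histone methyltransferase, Ap1g1 a subunit of the AP-1 clathrin adaptor and Dok4 a docking protein of tyrosine kinase signaling. Their control widths ranged from 75 bp, in replicate 1 at Kif19a, to 1150 bp, in replicate 2 at Crip2. At Tnrc6c the 3 libraries covered 800, 500 and 450 bp, and at Dok4 400, 575 and 650 bp. The nearest 4-OHT region was 258 kb from the first and 37.0 kb from the second, while it was 0.275 kb away at Kif19a and 0.350 kb at Ap1g1.

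The widest lost regions of all were distal. The region at chr6:47596551-47600425 covered 3125, 3850 and 3450 bp in the control libraries and none after 4-OHT, and it was the single lost region with a mean above 2000 bp. Its nearest protein-coding TSS was that of Ezh2, the catalytic subunit of PRC2, 51.2 kb away. A 4-OHT region lay 2.35 kb from it, but the nearest kept region was 2170 kb away. The second, at chr13:56312301-56315150, covered 2175, 2275 and 425 bp, 32.1 kb from Tifab, and formed a pair with a second lost region nearest Neurog1, a proneural bHLH factor. The third, at chr2:178375051-178377950, covered 2425, 825 and 1550 bp, 210 kb from Cdh26, a cadherin.

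Several of the next distal regions lay closer to genes of signaling and development. At chr12:25784826-25787100, 3.87 kb upstream of Id2, an inhibitor of bHLH factors, the control libraries covered 925, 2150 and 50 bp. At chr12:8311526-8313150, 2.77 kb upstream of Gdf7, a BMP family ligand, they covered 1025, 1150 and 850 bp. At chr8:24506051-24507400, 14.6 kb upstream of Sfrp1, a secreted Wnt antagonist, they covered 1350, 1200 and 225 bp. The Gdf7 region was listed at similar width in each library, whereas the other regions had 1 much narrower library. Near Polg, which encodes the mitochondrial DNA polymerase, an intronic region of AI854517 covered 1525, 1500 and 1075 bp. The remaining members of the 10 widest distal regions were nearest Zfp36l1 (an mRNA decay factor), Pcdhgc5 (a protocadherin) and Pik3cg (a phosphoinositide 3-kinase), and their libraries covered between 125 and 1375 bp.

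Developmental transcription factor genes, which are well-known Polycomb targets, had mostly kept regions. A kept region is one that was still listed, so a lower level of the mark within it would not be seen. Among all 22238 protein-coding genes, 8.22% had a kept and 3.65% a partly kept region within 2.5 kb of a TSS. Of 160 homeobox genes, 144 (90.0%) had a kept region there, 9 a partly kept one and 0 a lost one. Among 97 T-box, Fox, Sox, Gata, Runx, Mef2 and Hand genes, 56 had a kept and 1 a lost region, and among 31 neural bHLH genes 22 had a kept and 0 a lost one. Wnt ligands and secreted antagonists gave 17 of 33 with a kept, 10 with a partly kept and 0 with a lost region. BMP, Nodal and TGF-beta ligands and antagonists gave 15 of 37 kept and 0 lost, potassium, sodium and calcium channels 52 of 137 kept and 0 lost (the list's symbols leave out Accn1 and Accn4, acid-sensing channel family genes that each had a lost region), and neurotransmitter receptors 37 of 97 kept and 0 lost. With 0.409% of all protein-coding genes at a lost region, the background for a list of 160 genes is under 1 gene, so a count of 0 or 1 lost is no result about any of these lists.

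No gene had a lost region among 14 Wnt receptors, 18 Notch and Hedgehog genes, 59 ephrin, Eph, semaphorin, slit and netrin genes, 59 cadherins and protocadherins, 11 PRC2 subunits and 79 ribosomal protein genes. Of the 13 genes the study names as upregulated without Brg1, 7 had a kept, 2 a partly kept and 0 a lost region, and of the 6 named as downregulated, 2 had a kept, 2 a partly kept and 0 a lost one. These lists hold genes named in the study's text rather than all genes it called. Most of the names came from RNA-seq on cultures of the same design. Pdgfra narrowly missed the RNA-seq criteria and was reduced by flow cytometry. By read density, the study reported lower H3K27me3 without Brg1 at a marked subset of its upregulated genes. A region that is still listed can hold such a decrease, so the counts above do not test it.

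In all, 6 genes of the lists had a lost region. They were 2 of 26 FGF ligands and receptors (7.69%), 1 of 97 in the list with the Sox factors (1.03%), 1 of 74 collagen and matrix genes (1.35%) and 2 of 327 solute carriers (0.612%), against 0.409% of all protein-coding genes. Counts of 1 or 2 are given as a description. Sox3, a transcription factor of neural progenitors, had one at chrX:58148151-58148700 covering 425, 425 and 200 bp. Fgf9, a fibroblast growth factor ligand, had one at chr14:58690001-58690850 covering 75, 850 and 250 bp. Fgfr2, a receptor for such ligands, had one at chr7:137407651-137408325 covering 350, 500 and 25 bp. At Sox3 and Fgf9 a kept region lay at the same gene, and at Fgfr2 partly kept ones, so other H3K27me3 at the gene was still listed after 4-OHT in each case. Adamts2, a procollagen-processing protease, had 275, 650 and 600 bp at chr11:50416926-50417850, and Slc6a17, a transporter of synaptic vesicles, 625, 25 and 125 bp at chr3:107317926-107318550. Slc4a4, a sodium bicarbonate cotransporter, had 125, 175 and 25 bp at chr5:89317376-89317650 and was the one gene of the 6 with no kept or partly kept region.

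By nearest protein-coding gene rather than by promoter, 13 lost regions (6.34%) were assigned to 9 homeobox genes, among them Isl1, Pax2, Lmx1b, Barx1, Barx2, Cdx2 and Dlx2. For kept regions the share was 271 of 2700 (10.0%). A further 5 lost regions were nearest Sox3 or the forkhead genes Foxb1, Foxc2, Foxd4 and Foxe1 (2.44%, against 4.11% of kept regions). Other lists had a higher share in lost than in kept regions, all on 1 or 2 lost regions. They were the FGF genes (0.976% and 0.444%), the PRC2 subunits (Ezh2, 0.488% and 0%), the Notch and Hedgehog genes (Dll4, 0.488% and 0.259%) and the Wnt ligands and antagonists (0.976% and 0.963%). The genes the study names as upregulated had 0.976% and 0.556%, through 1 lost region each nearest Sfrp1 and Wnt7b.

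Suz12 was seldom called in the lost regions in either condition. Of the 205 regions, Suz12 lists overlapped 5 (2.44%, 95% exact binomial interval 0.797 to 5.60%) in each control replicate, and 6 (2.93%) and 8 (3.90%) in the 4-OHT replicates. Those intervals cover counting error only. The 4-OHT share exceeded the control share by 0.976 percentage points, and although the ranges did not overlap the exact two-sided permutation p was 0.333, the smallest that 2 against 2 libraries allow. The 4-OHT Suz12 lists were also longer, with 3654 and 4016 regions against 2951 and 2913.

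In kept regions the shares were 55.3% and 56.6% in the control and 61.2% and 69.3% after 4-OHT, and in partly kept regions 17.0% and 17.2%, then 20.4% and 27.3%. The control share in lost minus that in kept regions was -53.5 points (SD 0.917, n = 2 libraries). This difference moved with width, and against kept regions of at most 1 kb it was -7.66 points. Between 250 and 500 bp the control lists overlapped 2.08% and 4.17% of the lost and 2.48% and 2.48% of the kept regions, and between 500 and 1000 bp 8.82% and 2.94% of 34 lost and 11.9% and 11.9% of 480 kept regions. After 4-OHT the values between 500 and 1000 bp were 2.94% and 2.94% of lost and 18.5% and 30.4% of kept regions. The change in share with 4-OHT in lost minus that in kept regions was -8.28 points (exact two-sided permutation p = 0.333, 2 against 2 libraries). Its sign turned when at least 50% of the region had to be covered (0.485 points). Mean shares went from 2.4 to 3.4% in lost and from 56.0 to 65.2% in kept regions. The difference in points thus compares unlike starting shares and does not describe relative change.

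Of the lost regions, 3 (1.46%) were in both control Suz12 lists, against a background of 37.3% of the 4225 regions in all 3 H3K27me3 control lists. That background holds mostly wider regions, with a median mean control width of 1167 bp against 300 bp in lost regions. The same 3 lost regions were in all 4 Suz12 lists. At Sertad4 the Suz12 lists covered 450 and 100 bp in the control and 150 and 125 bp after 4-OHT. At Fgf9 they covered 850 and 450 bp, then 225 and 475 bp. At Slc35d3 (chr10:19571326-19571975), a solute carrier whose symbol falls outside the list above, they covered 375 and 575 bp, then 325 and 425 bp. In these merged regions Suz12 was still called where H3K27me3 no longer was. A 4-OHT H3K27me3 region lay 0.3 kb away at Fgf9 and 0.175 kb away at Slc35d3, but 7.3 kb away at Sertad4. Fgf9 and Slc35d3 each also had a kept region at a TSS.

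Suz12 in both 4-OHT lists and no control list was found at 2 lost regions (0.976%), against a background of 4.43% in the same set of mostly wider regions. Upstream of Id2 it covered 1025 and 1275 bp after 4-OHT, and at Hsd11b2, which encodes a glucocorticoid-inactivating dehydrogenase, 100 and 525 bp (chr8:108042876-108043600). The reverse pattern, in both control lists and no 4-OHT list, was found at 0 lost regions, where the exact interval reaches 1.78%, against a background of 0.26%. The remaining 5 of the 10 lost regions with any Suz12 were Crip2, Sox3, Pwwp2b, Zc3hav1 and a noncoding promoter of AI854703. Counting Suz12 within 1 kb gave shares of 11.2% and 9.27% in the control and 10.7% and 17.6% after 4-OHT, which overlapped (exact two-sided permutation p = 0.667). The nearest Suz12 region of either control list was a median 9.82 kb from a lost region and within 5 kb of 87 of 205 (42.4%).

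**Figure D4:**
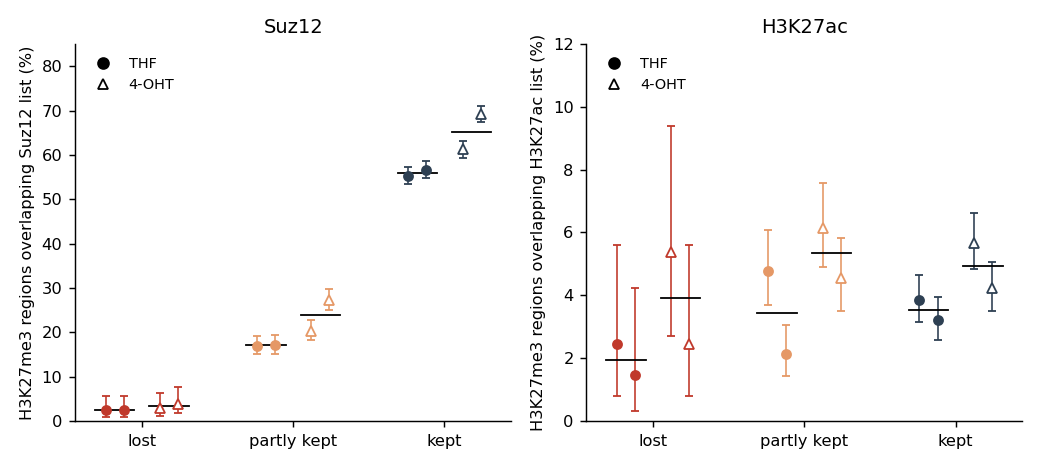
Share (percent) of lost, partly kept and kept H3K27me3 regions that overlapped each Suz12 list (left) and each H3K27ac list (right); each point is 1 library (filled circles, THF; open triangles, 4-OHT), bars are 95% exact binomial intervals and short lines are means of 2 libraries. Lost regions lie between 2.44 and 3.90% for Suz12 and between 1.46 and 5.37% for H3K27ac.

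H3K27ac was likewise rare, and no lost region was newly listed in both 4-OHT replicates. The lists overlapped 5 (2.44%) and 3 (1.46%) of the 205 lost regions in the control and 11 (5.37%) and 5 (2.44%) after 4-OHT, so the ranges met at 2.44%. The 4-OHT mean was 1.95 points higher, with an exact two-sided permutation p of 0.667. In kept regions the shares were 3.85% and 3.22%, then 5.67% and 4.22%. The change in lost minus that in kept regions was 0.544 points (exact two-sided permutation p = 1), and without 4-OHT H3K27ac replicate 1 it was -0.197 points.

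H3K27ac in both 4-OHT lists and no control list was found at 0 of the 205 lost regions (background 0.521%), and the reverse at 0 (background 0.237%). With any 1 list counted, 6 lost regions (2.93%, background 2.51%) had H3K27ac after 4-OHT only and 0 in the control only (background 0.947%). All 6 were in 4-OHT replicate 1 alone, and their share was near the background. They included Tgfbr1 (125 bp), Ppm1h (225 bp) and Bcl2l11 (100 bp). All 4 H3K27ac lists covered 3 lost regions (1.46%, background 1.59%). Upstream of Id2 they covered 1125 and 1125 bp in the control and 1225 and 1150 bp after 4-OHT, at Crip2 550 and 175 bp, then 1000 and 925 bp, and at Zc3hav1, an antiviral zinc finger gene, 350 bp in every library. In the control cultures H3K27me3 and H3K27ac were thus listed in the same merged region at these 3 places. At Adamts2 and Pwwp2b control replicate 1 and both 4-OHT replicates listed H3K27ac, over 125, 325 and 200 bp and over 25, 50 and 50 bp.

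FLAG-tagged Brg1 was called in few lost regions, as in few H3K27me3 regions of any kind. Its lists held 8021, 8257 and 192 regions and overlapped 2 (0.976%, 95% exact binomial interval 0.118 to 3.48%), 1 (0.488%) and 0 of the 205, against 1.37%, 1.31% and 0.00513% of all 19499 merged regions. The single lost region in at least 2 FLAG lists was that of Fgfr2, with 150 and 250 bp in replicates 1 and 2, and the region upstream of Id2 had 175 bp in replicate 1. In kept regions, which were wider, the shares were 5.67%, 4.37% and 0.0370%.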

How the data were processed

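The 17 deposited ChIP-seq lists give only the positions of enriched regions in mm9, with no value attached to a region. Per the labels and the file headers, the authors called the regions per replicate against input under a Poissonian model, with the threshold set to 1e-12 (H3K27me3, Suz12, H3K27ac) or 1e-06 with a 2-fold cutoff (FLAG). The submitters' processing notes name Bowtie and mm9. Versions, read filters and depth are not given in the sources used here. The 11 input samples served the authors' calling and were not used here otherwise. Replicates are biological, per the labels.

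Lists were merged where regions shared 1 bp. Every edge is a multiple of 25 bp, and gaps are between nearest edges. GENCODE vM1 (NCBIM37, the same assembly as mm9) supplied 86879 TSS positions. A promoter region lies within 2.5 kb of one. Mark shares were compared over libraries by exact two-sided permutation. Code (Python 3.11.15, NumPy 2.4.6, SciPy 1.17.1, Matplotlib 3.10.9) was tested on simulated data. Named genes are those at the 15 widest promoter and nearest the 10 widest distal lost regions, list genes, and regions in both control Suz12 lists, in both H3K27ac lists of one condition only, or in at least 2 FLAG lists; 1 gene that this rule names is not reported here. Further genes, such as those of groups, of isolated regions and of regions with other Suz12 or H3K27ac patterns, were named after their values were seen. The members and gene lists were chosen with earlier results of these data known. Alternatives varied the merging, widths, overlap, promoter distance and libraries used.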

Additional observations from a re-analysis of the deposited data

How the results depend on the processing

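The number of lost regions followed the rule closely. It was 205 as reported, 111 with H3K27me3 regions joined within 1 kb, 120 with regions of at least 500 bp in every list, 10 when only control regions had to reach 500 bp, 1025 with at least 2 of 3 control lists, 99 with equal lists of the widest regions (chosen after seeing the data), and 256 to 547 with 1 H3K27me3 library left out, which by construction loosens the rule. Region lists without counts or depth cannot separate a weaker mark from a less deeply sequenced library.

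The control Suz12 share of lost minus kept regions (-53.5 points) was -56.9 when joined, -67.6 at 500 bp in every list, -65.6 at 500 bp in the control, -57.0 with equal lists, -13.7 with at least 50% covered, -49.7 with Suz12 regions of at least 200 bp, -40.8 against regions in at least 1 4-OHT list, -42.0 against kept regions no wider than the widest lost one, -7.66 against kept regions of at most 1 kb, and -54.2 to -45.9 with 1 library left out. It was negative in each of these. By bin of mean control width it was negative from 500 bp up but not below. Lost regions numbered 34 between 500 and 1000 bp, but only 5 between 1000 and 2000 bp and 1 above. Between 250 and 500 bp the control lists overlapped 2.08% and 4.17% of lost and 2.48% and 2.48% of kept regions. Under 250 bp they overlapped 0% of both.

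With control regions of at least 500 bp the Suz12 and H3K27ac changes in lost regions were both 0, and with 1 library left out they ranged from 0.488 to 4.39 and from 0.488 to 3.41 points. The Suz12 change in lost minus kept regions (-8.28 points) was 0.485 with at least 50% covered and -11.8 to -4.25 with 1 library left out. The same difference for H3K27ac (0.544 points) was -1.91 at 500 bp in the control, -0.237 with 2 of 3 control lists, -0.759 within 1 kb, and -0.458 to 1.66 with 1 library left out, so its sign changed.

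The promoter share (46.8%) was 58.3% at 500 bp in every list, 30% at 500 bp in the control, 33.2% within 1 kb of a TSS, 59.5% within 5 kb and 45.4 to 58.0% with 1 library left out. The median CpG ratio (0.221) was 0.257 when joined, 0.197 at 500 bp in the control and 0.196 to 0.263 with 1 library left out.

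With the replicate number as a block, the Suz12 change in lost regions (0.976 points) had an exact sign-flip p of 0.5, as had the H3K27ac change (1.95) and the Suz12 difference (-8.28), and the H3K27ac difference (0.544) had p = 1. The smallest p that 2 pairs allow is 0.5, so the block changed no call. Same-numbered libraries deviated together in covered length (H3K27me3 r = 0.932, 0.875 and 0.796, Suz12 0.444, H3K27ac 0.418) but little in presence of a region (0.178, 0.124 and 0.0501, -0.000293, 0.102). The study's text says that control and treated cultures came from one differentiation, and neither it nor the labels say what a replicate number marks.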
